A study of Mus musculus with 13 samples.

Results

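The 9 genes described here encode the retinoid X receptors (RXR: *Rxra*, *Rxrb*, *Rxrg*), the retinoic acid receptors (RAR: *Rara*, *Rarb*, *Rarg*) and the peroxisome proliferator-activated receptors (PPAR: *Ppara*, *Ppard*, *Pparg*). They were taken by gene symbol from the 49315 genes counted by RNA-Seq of mouse back skin, and all 9 were among the 20168 genes with enough counts for a test. Whole skin of 3 WT mice and 3 DKO mice at P4 (postnatal day 4) was compared, with 1 library per mouse. DKO mice, labelled K14KCTD1KCTD15KO, were Kctd1 fl/fl and Kctd15 fl/fl and carried K14Cre+, a Cre recombinase under the keratin 14 promoter that removes floxed parts of both genes in keratinocytes. The WT mice were littermates without further description. Muscle, fat, fibroblasts, vessels, nerves and immune cells of the skin are not targeted by this promoter but were in the sample. In such bulk tissue, fewer cells of a type and less RNA per cell cannot be told apart.

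Nuclear receptors are transcription factors that are switched by small lipid-soluble ligands. RXR proteins form pairs with RAR, PPAR and several other receptors, and the pair sits on direct repeats of a hexamer called a half-site. Without ligand a RAR pair recruits corepressors, and all-trans retinoic acid exchanges these for coactivators. PPAR proteins respond to fatty acids and their derivatives. PPARA is known for fatty acid oxidation, PPARD is the main form in keratinocytes, and PPARG is required for fat cells and for sebocytes. RXRA and RARG are the forms known to predominate in epidermis, and RXRG is known for its presence in skeletal muscle, brain and pituitary. KCTD1 and KCTD15 are known to inhibit the transcription factor AP-2α.

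Start-site sequences were read for all 9 genes from RefSeq promoters of build GRCm38.p6, 18 windows in all, each with 250 bases before and 50 bases after a transcript start. They were searched on both strands for the half-site in its consensus form AGGTCA and in its variant forms, namely GGGTCA as well as AGTTCA and also GGTTCA, for direct repeats of these spaced by 1, 2 or 5 bases, and for the AP-2 word GCCNNNGGC. A half-site was in 9 of the 18 receptor windows and in 43.7% of all 32851 promoter windows. An AP-2 word was in 5 of the 18 (in *Rxrb*, *Rara*, *Ppard* and *Pparg*) and in 16.6% of all windows, and the 2 *Rara* windows with it overlap each other. A direct repeat spaced by 5, the spacing that RXR-RAR pairs are known to prefer, was in 1 of the 18, that of *Rarb*, and in 0.0974% of all windows. Repeats spaced by 1 or by 2 were in 0 of the 18, and in 0.222% and 0.268% of all windows. *Rarb* is known as a gene that its own receptor pair induces, so the repeat serves as a landmark for the *Rarb* values that follow. It starts 53 bases before the transcript start, at chr14:16575507-16575535 on the minus strand. All 29 bases of the stretch lie in an annotated exon, whose gene and strand were not checked. Capitals mark the half-sites:
*Rarb*: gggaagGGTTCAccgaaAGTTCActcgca
The *Ppard* window held 2 AP-2 words, one beginning at the transcript start itself and the other, shown here at chr17:28232685-28232713 on the plus strand, 59 bases before it. Of the 29 bases shown, 14 lie in an annotated exon, and capitals mark the word:
*Ppard*: gggggagggaGCCAGCGGCgcggtgacat
*Rxrg*, the receptor whose level differed most between the groups, has windows at both of its starts. They are shown as the 250 bases before each start on the plus strand, chr1:167598112-167598361 and chr1:167618015-167618264. Capitals mark half-sites in either orientation, 1 in the first and 2 in the second, and neither holds a repeat of the searched spacings or an AP-2 word:
*Rxrg* first start: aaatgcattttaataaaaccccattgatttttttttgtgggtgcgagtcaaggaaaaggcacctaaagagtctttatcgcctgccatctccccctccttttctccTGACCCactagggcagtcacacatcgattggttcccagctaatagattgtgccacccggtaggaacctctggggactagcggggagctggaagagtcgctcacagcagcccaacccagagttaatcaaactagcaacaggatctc
*Rxrg* second start: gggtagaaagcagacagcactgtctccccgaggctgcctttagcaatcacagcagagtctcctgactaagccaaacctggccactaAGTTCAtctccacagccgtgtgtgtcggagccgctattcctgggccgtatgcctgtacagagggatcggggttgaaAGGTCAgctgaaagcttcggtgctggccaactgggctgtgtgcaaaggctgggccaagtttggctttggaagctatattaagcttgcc
No binding data were collected, so these words describe the sequences only.

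The libraries held 11263863 to 17643043 counts on genes. Levels are given as CPM, counts scaled to library size after TMM normalization, and 3 counts correspond to 0.170 to 0.266 CPM. The transcripts of the targeted genes were not lower in the libraries labelled DKO: *Kctd1* was at 27.0 to 29.2 CPM in WT and at 33.3 to 64.9 CPM in DKO, and *Kctd15* at 48.5 to 50.3 CPM and at 74.5 to 99.4 CPM. Counts over whole genes do not show whether the floxed parts are missing, so they do not check the genotype labels. The receptors were touched by 2 libraries that stood apart. DKO replicate 2 differed from WT by GC content (the share of G and C bases in a gene's longest transcript): its median log2 deviation from the WT mean was -0.37 over the GC-poorest quintile of tested genes and 0.42 over the GC-richest quintile, against -0.08 to 0.08 over every quintile in the other 5 libraries. DKO replicate 1 had the highest summed level of 23 skeletal muscle markers, at 22434 CPM, against 10610 and 10627 CPM in the other DKO libraries and 6537 to 7500 CPM in WT. A GC-corrected fit, added after the data were seen, is given beside the main results.

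In WT skin the receptors spanned a wide range. Per kilobase of counted length, *Rarg* had the highest mean level at 38.5 ± 3.41 CPM per kb (SD, n = 3), followed by *Rxra* at 33.8 ± 1.66 CPM per kb. *Rara* stood at 15.7 ± 0.171 CPM per kb, *Ppard* at 11.8 ± 0.790 CPM per kb, *Pparg* at 10.7 ± 1.43 CPM per kb and *Rxrb* at 7.40 ± 0.474 CPM per kb. The lowest were *Rarb* at 2.47 ± 0.301, *Ppara* at 1.38 ± 0.337 and *Rxrg* at 0.871 ± 0.159 CPM per kb. *Rxra* above *Rara* and *Rxrb* above *Rarb* were the neighbouring ranks, ordered over all 6 libraries, whose ranges did not overlap. The other neighbours overlapped, among them *Rarg* with *Rxra* and *Ppard* with *Pparg*. Of the 10 cell type marker lists, the 13 keratinocyte markers summed to 9582 to 9907 CPM in WT and to 11319 to 14125 CPM in DKO, and the sample thus held the tissue its label names. Fibroblast (15309 to 25462 CPM over all 6 libraries), endothelial (232 to 326 CPM), macrophage (158 to 222 CPM), melanocyte (500 to 869 CPM) and Schwann cell markers (125 to 235 CPM) overlapped between the groups. Brown adipocyte markers summed to 55.9 to 71.0 CPM in WT and to 28.3 to 41.4 CPM in DKO. Within this list *Elovl3*, also a sebaceous marker, was at 34.8 to 42.3 CPM in WT and 12.04 to 25.3 CPM in DKO, and *Dio2*, a thyroid hormone deiodinase, was at 8.19 to 19.3 CPM and 4.36 to 7.79 CPM.

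**Figure D1:**
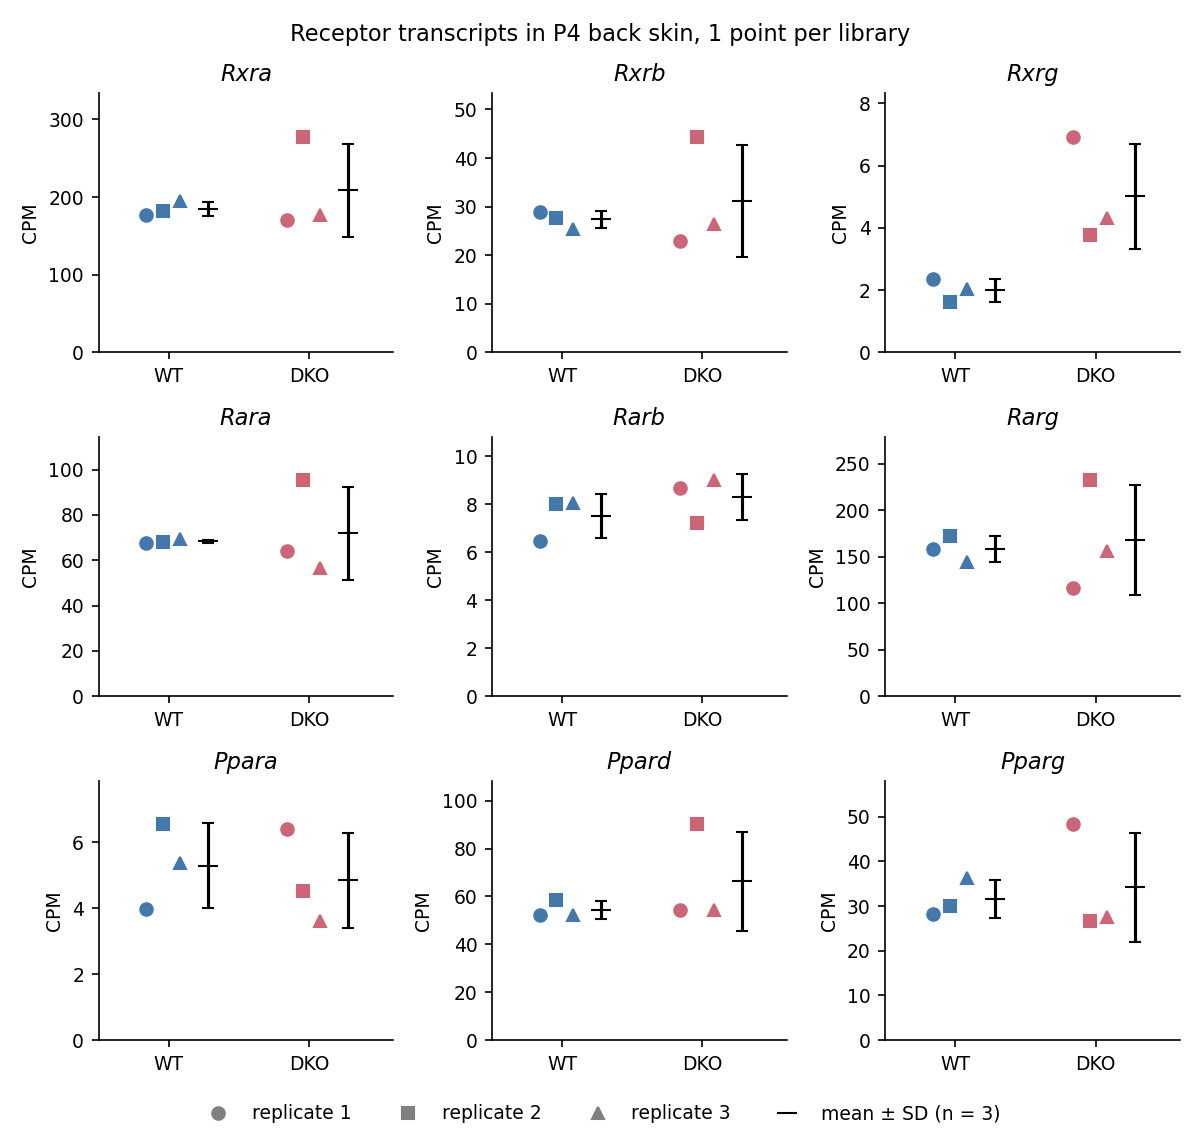
CPM of the 9 receptors (vertical axes, from 0, with a scale of their own per panel) in each WT and DKO library, with the mean and SD of 3 libraries in black. The groups were apart for *Rxrg* alone, and DKO replicate 2 was the highest library for *Rxra*, *Rxrb*, *Rara*, *Rarg* and *Ppard*.

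To ask whether loss of KCTD1 and KCTD15 in keratinocytes was accompanied by other receptor levels, DKO was compared with WT by edgeR's quasi-likelihood F test, adjusted over all 20168 genes. A call needed an adjusted p under 0.05 together with more than a 2-fold difference, or 1 on the log2 scale. By this rule 0 of the 9 receptors were called, beside 0.0694% of all genes (8 higher and 6 lower in DKO). DESeq2 called 1 receptor, *Rxrg*, beside 0.783% of the genes it tested. At an unadjusted p under 0.05, *Rxrg* again was the receptor that passed, beside 7.50% of all genes (1000 higher and 512 lower in DKO). All DKO libraries lay above all WT libraries for *Rxrg*, as for 7.24% of all genes, and the reverse held for 0 receptors, against 5.96% of all genes. The other 8 receptors had 95% intervals that included 0 and lay within a 2-fold difference in either direction. For 3 of the receptors the interval lay within 1.5-fold.

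*Rxrg* (ENSMUSG00000015843, chr1:167598384-167639623), the receptor known from muscle, stood at 2.35, 1.62 and 2.03 CPM in WT replicates 1 to 3 and at 6.93, 3.78 and 4.33 CPM in DKO replicates 1 to 3. These values rest on 35, 29 and 36 counts in WT and on 80, 52 and 66 counts in DKO. Every DKO library was above every WT library, and DKO replicate 1 was the highest. The log2 fold change was 1.32 ± 0.31 (SE, 95% interval 0.62 to 2.02), which is 2.49-fold, with an unadjusted p of 0.00186 and an adjusted p of 0.253 in edgeR. DESeq2 gave 1.31 with an adjusted p of 0.0405, and the GC-corrected edgeR fit gave 1.26 with an adjusted p of 0.240. Over 20 other settings the log2 fold change stayed between 1.01 and 1.49, while the adjusted p ran from 0.0148 to 0.855. The call rested on the method and on single libraries: without DKO replicate 1, DESeq2 gave 1.01 with an adjusted p of 0.576. Without WT replicate 2, it gave 1.18 with an adjusted p of 0.557.

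Skeletal muscle markers moved with *Rxrg*. All 23 of 23 had a higher mean level in DKO, with a median log2 fold change of 1.05. All DKO libraries lay above all WT libraries for 19, as for 7.24% of all genes. Their edgeR calls were 0 and their DESeq2 calls 12, beside 0.0694% and 0.783% of the genes each tested. Among the genes of the other 18 lists, *Acta1*, the skeletal muscle alpha-actin, had the pattern most like that of *Rxrg* (Pearson r 0.984 of log2 CPM over 6 libraries), followed by *Tnnt3*, a fast muscle troponin (r 0.984). These points share libraries and depth, and the r is a description. The log2 ratio of *Rxrg* to *Acta1* was -8.95 ± 0.17 in WT and -8.75 ± 0.14 in DKO (SD, n = 3). *Acta1* was picked for its likeness to *Rxrg* in the same libraries, so this ratio was bound to vary little and has no test. The log2 ratio of *Rxrg* to *Rxra* was -5.29 ± 0.29 in WT and -4.14 ± 0.79 in DKO, a difference of 1.15 with an exact two-sided permutation p of 0.1, the smallest that 3 against 3 allows. The part of muscle content in the *Rxrg* difference was not tested.

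**Figure D2:**
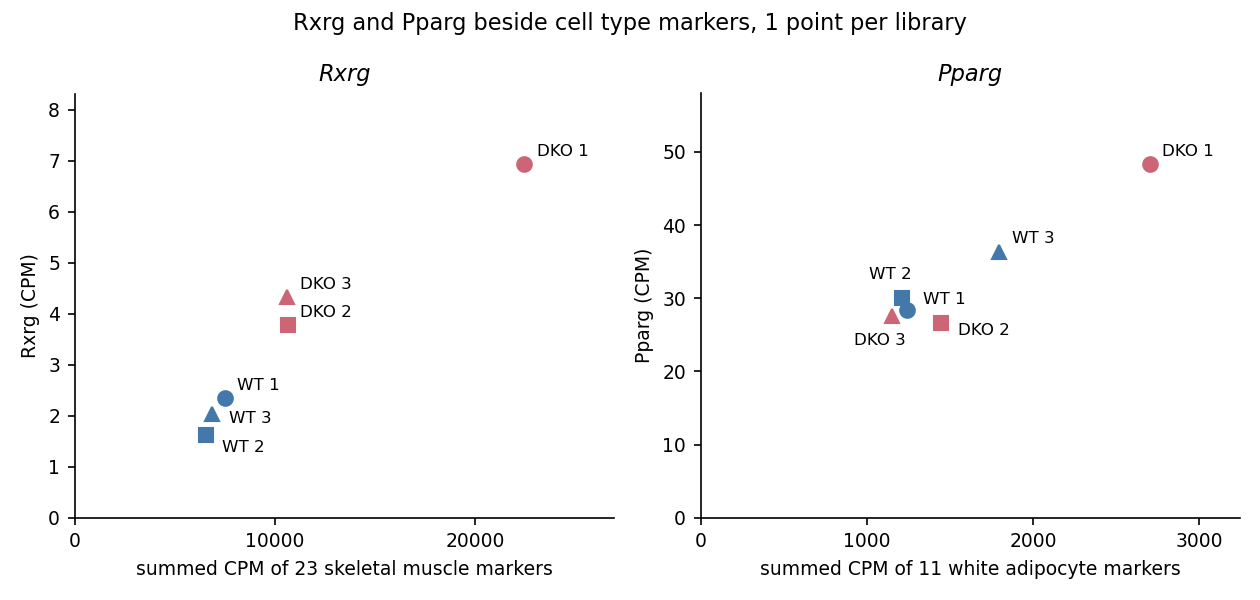
*Rxrg* against the summed CPM of 23 skeletal muscle markers (left) and *Pparg* against the summed CPM of 11 white adipocyte markers (right), with 1 point per library, blue for WT and red for DKO. DKO replicate 1 lies at the upper right of both panels, at 6.93 CPM of *Rxrg* and 48.3 CPM of *Pparg*.

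The abundant RXR genes did not pass the test. *Rxra* (ENSMUSG00000015846, chr2:27676440-27762957), the main partner in skin, was at 177, 182 and 195 CPM in WT and at 171, 278 and 177 CPM in DKO. The high value was that of DKO replicate 2, and the other DKO libraries lay within or just below the WT range. The log2 fold change was 0.18 ± 0.19 (SE, 95% interval -0.24 to 0.59) with an adjusted p of 0.933. *Rxrb* (ENSMUSG00000039656, chr17:34031812-34038393), which is broadly expressed, was at 28.9, 27.7 and 25.5 CPM in WT and at 22.9, 44.4 and 26.5 CPM in DKO, with the same library on top. Its log2 fold change was 0.19 ± 0.23 (95% interval -0.33 to 0.71, adjusted p 0.940). Per length, *Rxra* made up 80.3% ± 1.77 of the RXR transcripts in WT and 78.1% ± 0.799 in DKO. The share of *Rxrg* was 2.07% ± 0.390 in WT and 4.85% ± 2.47 in DKO, so that even in DKO replicate 1 it reached 7.46%.

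The RAR genes showed the same split by library. *Rarg* (ENSMUSG00000001288, chr15:102234938-102257517), the main RAR of epidermis, was at 158, 172 and 144 CPM in WT and at 116, 232 and 156 CPM in DKO, so that the DKO libraries lay on both sides of the WT range. Its log2 fold change was 0.09 ± 0.22 (95% interval -0.41 to 0.58, adjusted p 0.971). *Rara* (ENSMUSG00000037992, chr11:98927818-98974942), a broadly expressed receptor, was nearly constant in WT at 67.8, 68.2 and 69.2 CPM and spread over 64.1, 95.2 and 56.4 CPM in DKO. The coefficient of variation was 1.09% in WT and 28.6% in DKO. Its log2 fold change was 0.07 ± 0.19 (95% interval -0.35 to 0.49, adjusted p 0.972). *Rarb* (ENSMUSG00000017491, chr14:16430842-16575472), which carries the repeat shown earlier, was at 6.45, 8.0 and 8.06 CPM in WT and at 8.66, 7.19 and 8.98 CPM in DKO. DKO replicate 2 was the lowest DKO library here, unlike for *Rara* and *Rarg*. The log2 fold change was 0.14 ± 0.20 (95% interval -0.30 to 0.58, adjusted p 0.949). Within the family *Rarg* held 67.9% in WT and 67.4% in DKO per length, *Rara* 27.7% in both and *Rarb* 4.37% and 4.89%. The log2 ratio of *Rara* to *Rarg* differed by 0.00 (exact permutation p of 1).

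Among the PPAR genes, *Ppard* (ENSMUSG00000002250, chr17:28232754-28301469), the main form of keratinocytes, was at 52.2, 58.7 and 52.4 CPM in WT and at 54.6, 90.2 and 54.2 CPM in DKO. DKO replicate 2 stood apart and the other DKO libraries lay inside the WT range. Its log2 fold change was 0.29 ± 0.20 (95% interval -0.17 to 0.74, adjusted p 0.884). *Pparg* (ENSMUSG00000000440, chr6:115360951-115490399) was at 28.3, 30.0 and 36.4 CPM in WT and at 48.3, 26.7 and 27.5 CPM in DKO. Here DKO replicate 1 was the highest and the other DKO libraries were below all WT libraries. The log2 fold change of 0.11 ± 0.23 (95% interval -0.41 to 0.63, adjusted p 0.966) became -0.23 without DKO replicate 1. *Ppara* (ENSMUSG00000022383, chr15:85734983-85802819), the receptor of fatty acid oxidation, was at 3.96, 6.54 and 5.35 CPM in WT and at 6.41, 4.51 and 3.61 CPM in DKO, with full overlap. Its log2 fold change was -0.14 ± 0.29 (95% interval -0.78 to 0.50, adjusted p 0.963), and 0.04 without WT replicate 2 or without DKO replicate 3.

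The balance of *Ppard* and *Pparg* varied more among DKO mice than between the group means. Per length, *Ppard* made up 49.4% ± 3.65 of PPAR transcripts in WT and 52.8% ± 13.1 in DKO. *Pparg* made up 44.8% ± 3.98 in WT and 42.6% ± 12.2 in DKO. In DKO replicate 1 *Pparg* led with 54.9% against 39.5%, and in DKO replicate 2 *Ppard* led with 65.6% against 30.4%. The log2 ratio of *Ppard* to *Pparg* differed by 0.18 between the groups (exact permutation p of 0.7). The genes most like *Pparg* over the 6 libraries were *Acsl1*, an acyl-CoA synthetase (r 0.977), and *Car3*, a carbonic anhydrase abundant in fat (r 0.968). The 11 white adipocyte markers summed to 1212 to 1797 CPM in WT. Their sums were 2702, 1448 and 1151 CPM in DKO replicates 1 to 3, so their highest library was also that of *Pparg*. *Car3*, 1 of the 11, alone gave 1419 CPM in DKO replicate 1, the library also highest in muscle markers. Of the 11 markers, 9 had a higher and 2 a lower mean in DKO. WT replicate 3, whose title shares a number with DKO replicate 1, was the highest WT library for *Pparg* and for this sum. The sebaceous gland, the other main site of *Pparg*, had a lower marker sum in each DKO library, at 525 to 968 CPM against 984 to 1148 CPM. Of its 11 markers, 10 had a lower mean in DKO. Calls were 0 by edgeR and 5 by DESeq2, beside 0.0694% and 0.783% of the genes each tested. How far either cell type carried the *Pparg* values was not tested.

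Base composition moved with the abundant receptors. *Rxra*, *Rxrb*, *Rara* and *Rarg* have longest transcripts with 57.0% to 61.4% GC, all in the GC-richest quintile of tested genes. In DKO replicate 2 these receptors deviated from the WT mean by 0.47 to 0.69 on the log2 scale, against a median of 0.42 for that quintile. *Ppard*, at 52.2% GC, deviated by 0.73, against a median of 0.22 for its quintile. *Ppara*, in the same GC range as *Ppard*, deviated by -0.18, and *Rarb* and *Pparg*, which are less GC-rich, by -0.05 and -0.23. Without DKO replicate 2 the log2 fold changes turned negative for *Rxra* (-0.08), *Rxrb* (-0.14), *Rara* (-0.18) and *Rarg* (-0.21), and that of *Ppard* was 0.00. With the GC correction they were 0.05 for *Rxra*, 0.02 for *Rxrb*, -0.06 for *Rara*, -0.05 for *Rarg* and 0.22 for *Ppard*, all with adjusted p-values of 0.697 or more. The interval of *Rara* then ran from -0.27 to 0.16 and that of *Rxra* from -0.17 to 0.26. DKO replicate 2 was the highest library for 5 of the 9 receptors and for 29.4% of all tested genes.

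**Figure D3:**
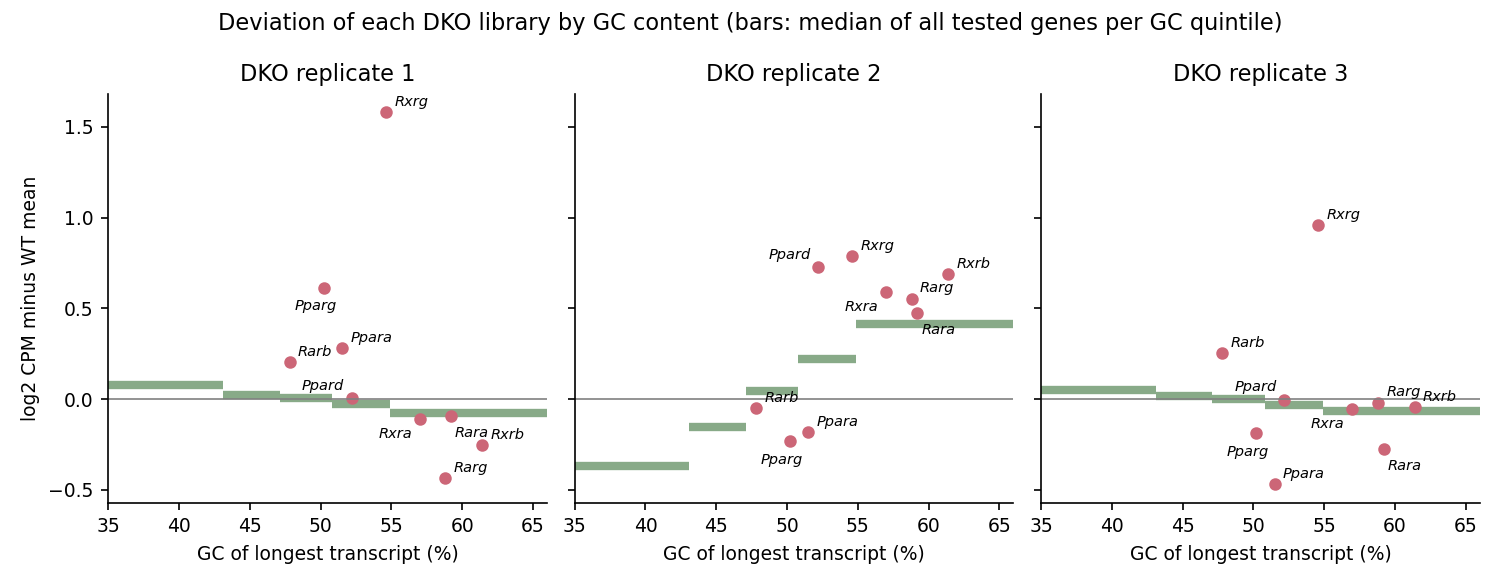
log2 deviation of each receptor from the WT mean (vertical axis, CPM plus 0.5) against the GC content of its longest transcript (horizontal axis), 1 panel per DKO library. Green bars give the median of all tested genes in each GC quintile. In DKO replicate 2 the bars climb from -0.37 to 0.42, and the GC-rich receptors lie above 0.47.

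**Figure D4:**
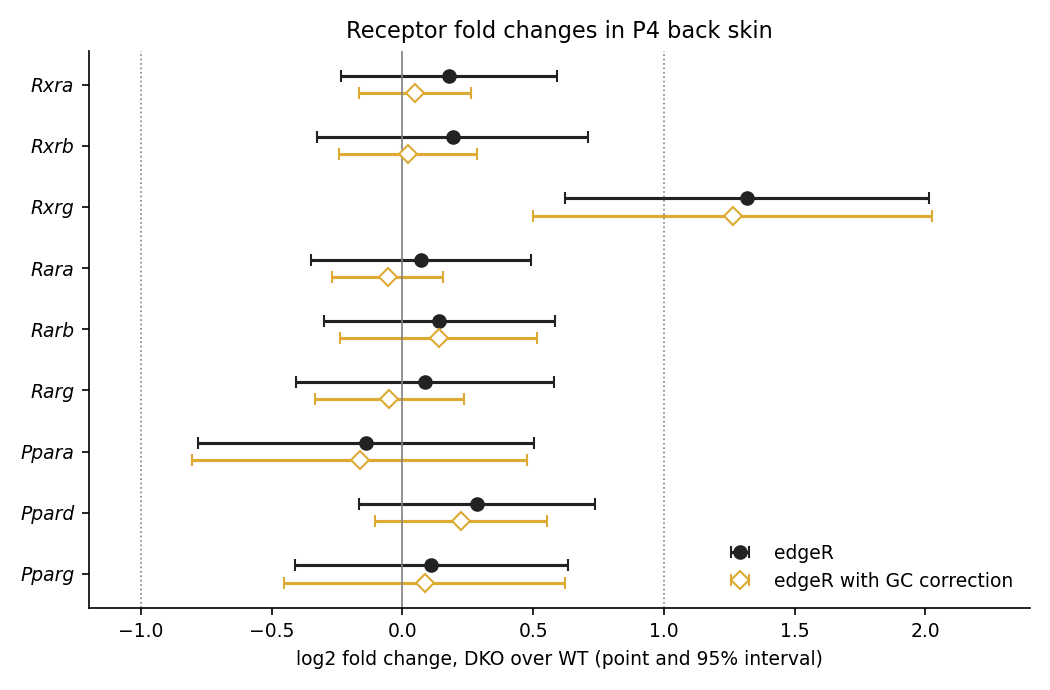
log2 fold change of each receptor, DKO over WT, with its 95% interval in the main edgeR fit (filled circles) and after GC correction (open diamonds). Dotted lines mark a 2-fold difference in either direction, and the interval of *Rxrg* is the one that excludes 0.

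The pathway around the receptors was read from 8 lists, of which 0 genes were called by edgeR, beside 0.0694% of all genes. List counts at an unadjusted p under 0.05 stand beside 7.50% of all genes, 1000 higher and 512 lower in DKO. The retinoid supply list covers uptake and storage of retinol and its oxidation to retinoic acid. It also holds retinal reductases such as *Rdh11*, which work in the reverse direction, so the list median mixes opposing steps. Of its 19 tested genes, 9 had a higher and 10 a lower mean in DKO, with a median log2 fold change of -0.02 beside 0.02 for all genes (from -0.10 without DKO replicate 1 to 0.02 without WT replicate 1 as single libraries were left out). *Rdh11*, a retinal reductase, was at 51.6, 47.1 and 50.4 CPM in WT and at 29.3, 39.5 and 36.0 CPM in DKO, with all DKO libraries lower (log2 fold change -0.51 ± 0.15, adjusted p 0.359 in edgeR). *Dhrs9* (-0.54) and *Rdh12* (-0.25), both encoding enzymes that act on retinoids, followed by p and overlapped between the groups in at least 1 library. Of the enzymes that degrade retinoic acid, *Cyp26b1* was the one with enough counts. It was at 95.5, 94.6 and 86.7 CPM in WT and at 119, 131 and 115 CPM in DKO, all DKO libraries higher (0.40 ± 0.12, adjusted p 0.379, GC-corrected 0.30). *Cyp26b1* is itself induced by retinoic acid and also stood among the RAR targets.

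Intracellular carriers bring ligands to the receptors. Of 8 tested, 7 had a lower and 1 a higher mean in DKO, with a median of -0.34, and 1 passed the unadjusted threshold in each direction. Without DKO replicate 2 the median was -0.73, with 6 lower and 2 higher, and with at least 10 counts required in every library it was -0.14. *Fabp5*, the epidermal fatty acid-binding protein known to deliver ligand to PPARD, was at 232, 234 and 200 CPM in WT and at 153, 169 and 160 CPM in DKO. All DKO libraries were lower (-0.47 ± 0.12, adjusted p 0.298 in edgeR, 0.0942 in DESeq2), and the GC-corrected value was the same to 2 decimals. *Fabp3*, the form of heart and muscle, had the opposite sign, at 4.03, 3.97 and 6.09 CPM in WT and 25.1, 8.36 and 7.94 CPM in DKO (1.54 ± 0.44, adjusted p 0.342 in edgeR, 0.0185 in DESeq2). Its highest library was DKO replicate 1, the one highest in muscle markers.

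The corepressors and coactivators numbered 19, of which 16 had a higher mean in DKO, but by a median of 0.04 only. After GC correction 13 were higher, and without DKO replicate 2 only 7 were, with a median of -0.01 (0.08 without DKO replicate 1 and 0.03 without WT replicate 3). *Ppargc1b*, the coactivator PGC-1β, was at 15.04, 16.7 and 15.5 CPM in WT and at 27.7, 32.9 and 22.0 CPM in DKO. The groups were apart (0.81 ± 0.18, adjusted p 0.213 in edgeR, GC-corrected 0.70 with 0.121). Its log2 fold change was under the 1 that a call required, while its DESeq2 adjusted p was 0.0179. *Ppargc1a*, the coactivator PGC-1α, had 0.46 ± 0.26 (adjusted p 0.800). *Pprc1*, a coactivator related to PGC-1α, was also the list gene most like *Ppard* (r 0.984) and *Rxra* (r 0.961) over the 6 libraries, with DKO replicate 2 as its highest library. The genes most like *Rarg* were *Nr1h2*, which encodes the oxysterol receptor LXRβ (r 0.987), and the coactivator gene *Ncoa3* (r 0.977). *Nr1h2* was also the gene most like *Rxrb* (r 0.982). DKO replicate 2 was the highest library for *Nr1h2* and *Ncoa3* too, and these r values were taken without GC correction. With the correction the log2 fold change of *Nr1h2* went from 0.16 to -0.03. Of 9 other RXR partners tested, 6 had a higher and 3 a lower mean, with 0 at an unadjusted p under 0.05. Their median was 0.16, and -0.01 without WT replicate 1 or 0.25 without DKO replicate 3. The thyroid hormone receptor genes *Thra* (0.33, adjusted p 0.689) and *Thrb* (-0.14, adjusted p 0.925) and the xenobiotic receptor gene *Nr1i2* (0.80, adjusted p 0.906, at 3 to 18 counts) had the smallest p-values.

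Genes known to be induced by retinoic acid did not move together. Of 11 tested, 7 had a higher and 4 a lower mean in DKO (median 0.14), with 2 and 1 at an unadjusted p under 0.05. The median was 0.29 without DKO replicate 1, 0.21 without WT replicate 2, 0.06 without DKO replicate 2 and 0.08 without DKO replicate 3. Besides *Cyp26b1*, *Tgm2*, a transglutaminase, was at 24.2, 23.7 and 24.1 CPM in WT and at 35.8, 36.0 and 25.3 CPM in DKO (0.43 ± 0.17, adjusted p 0.555). *Rarres1*, named for its response to a retinoid, was lower in all DKO libraries, at 15.2, 18.3 and 17.8 CPM against 23.4, 23.9 and 25.3 CPM (-0.50 ± 0.15, adjusted p 0.358). *Cdx1*, a homeobox gene chosen here after its values were seen and too low for the test, had 0 counts in each WT library and 2, 29 and 19 counts in DKO replicates 1 to 3.

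PPAR targets of fatty acid oxidation and ketone formation were divided, with 12 higher and 10 lower of 22 tested (median 0.05), and 4 and 1 at an unadjusted p under 0.05. The median was 0.10 without DKO replicate 2, 0.03 without WT replicate 3 and 0.02 without DKO replicate 1. *Pdk4*, a kinase that restrains pyruvate oxidation, was at 17.4, 18.9 and 11.3 CPM in WT and at 29.2, 28.1 and 50.5 CPM in DKO. All DKO libraries were higher (1.18 ± 0.27, adjusted p 0.236 in edgeR, 0.00542 in DESeq2), and DKO replicate 3 was the highest. The summed muscle markers were also higher in all DKO libraries, with DKO replicate 1 the highest. *Cpt1b*, the muscle form of the enzyme that brings fatty acids into mitochondria, was at 3.16, 4.47 and 3.83 CPM in WT and at 12.2, 6.76 and 6.75 CPM in DKO (1.15 ± 0.29, adjusted p 0.281 in edgeR, 0.0380 in DESeq2). DESeq2 called 3 of the list, *Pdk4*, *Cpt1b* and *Fabp3*, beside 0.783% of the genes it tested. Of the 3, *Cpt1b* and *Fabp3* were described here as muscle forms, which does not mean that *Pdk4* is absent from muscle. The part of muscle content in these values was not tested.

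PPARG targets of fat storage had 12 higher and 6 lower of 18 tested (median 0.14), with 2 at an unadjusted p under 0.05 in each direction. The median was -0.15 without DKO replicate 1, 0.05 without WT replicate 1, 0.28 without WT replicate 3 and 0.29 without DKO replicate 3. *Scd1*, a stearoyl-CoA desaturase abundant in sebaceous glands, was at 1449, 1621 and 1401 CPM in WT and at 456, 753 and 600 CPM in DKO, with the groups far apart (-1.31 ± 0.19, adjusted p 0.0617 in edgeR, 2.654e-08 in DESeq2, 0.0469 in the GC-corrected fit). *Retn*, the adipocyte hormone resistin, was at 4.57, 5.09 and 5.24 CPM in WT and at 22.2, 9.52 and 8.46 CPM in DKO (1.42 ± 0.35, adjusted p 0.281 in edgeR, 0.00893 in DESeq2). *Olr1*, a scavenger receptor, was at 2.15, 1.73 and 1.01 CPM in WT and at 2.34, 3.71 and 5.18 CPM in DKO (1.21 ± 0.38, adjusted p 0.423). The sign of the *Scd1* difference was also that of the sebaceous markers, whose median log2 fold change was -0.89. *Retn*, itself 1 of the 11 white adipocyte markers, had its highest value in DKO replicate 1, where their sum was highest. In DKO replicate 3, where that sum was lowest (1151 CPM), *Retn* was at 8.46 CPM, above all WT libraries. The part of sebaceous gland or fat content in the *Scd1* and *Retn* values was not tested. *Pparg* itself had a log2 fold change of 0.11.

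**Figure D5:**
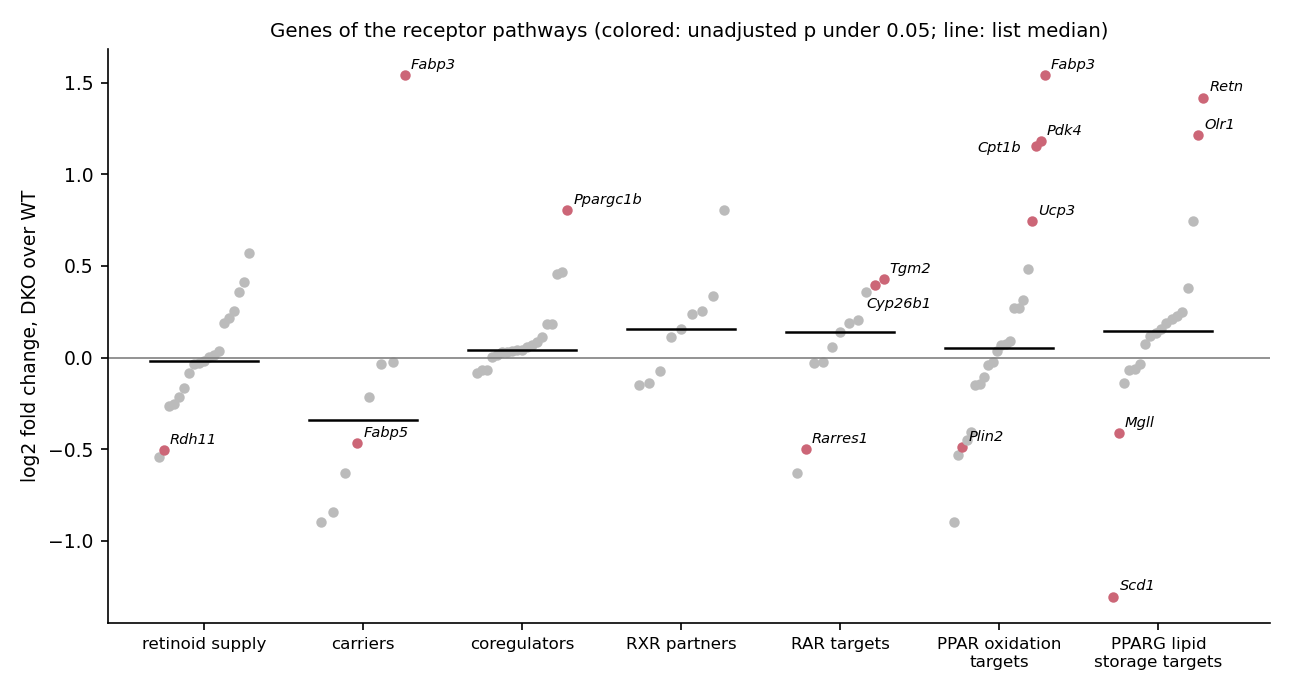
log2 fold change, DKO over WT, of each tested gene of 7 pathway lists (points), with the list median (black line). Genes at an unadjusted p under 0.05 are colored and named, and list medians lie between -0.34 and 0.16.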

How the data were processed

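The authors depleted rRNA, trimmed paired-end reads (Trimmomatic 0.36), mapped them to GRCm38 (STAR 2.5.2b) and counted them on genes (featureCounts, Subread 1.5.2, per the submitters' processing notes). Whether the strand was used is not given in the sources used here. The deposited values are raw counts per gene. The files of 7 epidermis libraries hold 0 for every gene and were not used. Samples were grouped by the genotype in their labels, and p-values measure the spread between 3 mice per group.

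Genes were kept by filterByExpr, scaled by TMM and tested with edgeR 4.0.16 (R 4.3.3), with Benjamini-Hochberg adjustment over 20168 genes. The study's tool, DESeq2 1.42.0, was an alternative. Symbols matched 48970 of 49315 identifiers, and no receptor shared exonic bases with another gene. For the GC correction, an offset per library came from the median deviation of genes in 20 GC bins (GENCODE M21 longest transcripts, for 99.7% of tested genes). Fits were tested on simulated data. Intervals cover 95%, and depth floors cover counting error only.

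The members and lists were chosen with earlier results of these data known. Named genes are the 9 receptors, the 3 smallest p-values per pathway list and every called gene, the 2 most abundant genes per marker list and the 2 most like each receptor. Not all of them are printed, and 2 are not reported here.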

Additional observations from a re-analysis of the deposited data

How the results depend on the processing

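The count of genes called over the whole table was 14, and it became 154 with DESeq2, 22 with total counts, 210 with no filter on low counts and 35 with the replicate block, in which the number shared by mouse titles of both genotypes (40972 or 47347) entered the fit. WT replicate 3 and DKO replicate 1 carried 40972, and the other libraries carried 47347. The labels do not say what that number marks, so the pairing was not used in the main fit, and *Rxrg* had an adjusted p of 0.139 with it. For *Pparg* the log2 difference between DKO and WT was 0.41 within 40972 and -0.11 within 47347. A part of that number in the *Pparg* values was not tested. Leaving out 1 library gave 2 to 36 genes, with 2 without WT replicate 2 or 3, 3 without WT replicate 1, 4 without DKO replicate 3, 33 without DKO replicate 2 and 36 without DKO replicate 1. The count of receptors called was 0, and it became 1 (*Rxrg*) with DESeq2 and with no filter on low counts, and 0 to 1 in DESeq2 with 1 library left out, where the 1 was *Rxrg* without DKO replicate 2 (adjusted p 0.0148). It stayed at 0 with RLE size factors, total counts, at least 10 counts in every library, the block, library sizes without muscle markers, no fold threshold, the GC correction and each library left out in edgeR. With 1 library left out, the log2 fold change ran from -0.079 to 0.29 for *Rxra*, -0.14 to 0.35 for *Rxrb*, -0.18 to 0.22 for *Rara*, -0.21 to 0.27 for *Rarg*, -0.40 to 0.038 for *Ppara* and -0.23 to 0.26 for *Pparg*. The GC correction turned *Rara* to -0.057 and *Rarg* to -0.050. *Rarb*, *Ppard* and *Rxrg* kept their sign under every setting run. No scaling moved the median of all genes by over 0.1. *Rxrg* rests on 29 to 80 counts per library, which limits its precision.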
